A study of Mus musculus with 3 samples.

Results

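Tumours of the mouse Lewis lung carcinoma line LLC1, grown in the tibia of hosts with DMP1-Cre deletion of Mfn2 or of Rhot1, were compared directly with each other by droplet 3' single-cell RNA sequencing. The compared cells were every barcode of the library labelled DMP1-Cre Mfn2 or DMP1-Cre Rhot1 with at least 300 detected genes and at most 15% of its UMIs (unique molecular identifiers, one per captured RNA molecule) from mitochondrially encoded genes. They number 19227 of the 28522 cells that pass the same rule in the 3 libraries of the series, 9868 from the Mfn2 library and 9359 from the Rhot1 library. The wild-type library entered no comparison.

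Both groups of hosts carried DMP1-Cre, described as Mfn2-/- in one group and Rhot1-/- in the other, and were 8 weeks old. Each received 1000000 LLC1 cells in 10 µL in the right tibia, and tumours were taken on day 14. The injected cells carry no deletion of their own. Tumours of 3 mice were mixed in equal parts for each library, digested with collagenase (2 mg/ml, 1 h), passed through a 70 µm filter and sorted for live cells, and the cells carry no label of the mouse they came from. With 1 library a side, none of the differences could be checked against replicates and no test was run. Values in parentheses give 95% intervals that cover counting error alone, exact for shares (Clopper-Pearson), for UMI levels (Poisson) and for ratios of levels (conditional), and log-normal for ratios of shares; they treat UMIs and cells as independent, which those of mixed tumours are not.

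Mfn2 encodes mitofusin 2, a GTPase of the outer mitochondrial membrane that fuses mitochondria and tethers them to the endoplasmic reticulum. Rhot1 encodes Miro1, an outer-membrane GTPase that couples mitochondria to motor proteins for transport along microtubules. Dmp1 is expressed in osteocytes, the cells embedded in bone matrix that connect with each other through long processes, and Dmp1-Cre is used to delete genes in these bone cells. The cells sampled here are the tumour and the leukocytes around it.

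The libraries were of nearly equal size, with 10016 barcodes and 118123705 UMIs for Mfn2 and 9534 barcodes and 118223251 UMIs for Rhot1. The median depth was 10860.5 and 12024 UMIs per barcode. Scrublet marked 3.12% and 2.36% of the cells as doublets, which were removed, leaving 9560 and 9138 cells, and 20 barcodes occurred in both libraries among the cells kept by the rule. Joint clustering gave classes named by marker genes. Tumour-like cells held Krt8, a keratin, at 679 and 609 CPM (UMIs per 1000000 UMIs of the class or library) and Hmga2, a chromatin protein, at 592 and 565 CPM, with 1 of 8 tumour markers at 0 in both libraries. No cluster was named osteoblast- or osteocyte-like: Dmp1 had 6 UMIs in all cells of the Mfn2 library and 3 in those of the Rhot1 library.

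The targeted genes were at similar levels in both libraries. Mfn2 (ENSMUSG00000029020, chr4:147873599-147904704, minus strand, mm10) was at 20.3 CPM (19.5 to 21.1) over all cells of the Mfn2 library and at 20.7 CPM (19.9 to 21.6) in the Rhot1 library. Rhot1 (ENSMUSG00000017686, chr11:80209019-80267907, plus strand) was at 23.7 CPM (22.8 to 24.6) and 25.2 CPM (24.3 to 26.1). In macrophage-like cells, which come from the host, Mfn2 was at 19.3 and 19.7 CPM and Rhot1 at 23.6 CPM in both. A 3' tag can lie outside the deleted exons, and the cell type that expresses Cre was not captured, so these levels check neither label.

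Neutrophil-like cells were the named leukocyte class with a higher share in the Mfn2 library. They made up 9.12% of the cells (8.55 to 9.72) in the Mfn2 library (872 cells) and 5.02% (4.58 to 5.49) in the Rhot1 library (459 cells), a ratio of 1.82 (1.63 to 2.03). Neutrophils are short-lived granulocytes that leave the marrow in large numbers and hold little RNA; their median depth was 1044.5 and 1269 UMIs, and their median number of detected genes 529 and 600. With the stricter filter of 1000 genes, 41 and 36 of them were left, a ratio of 1.13 (0.720 to 1.76).

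Lymphoid and dendritic classes were smaller in the Mfn2 library. T cell-like cells made up 1.22% (1.01 to 1.46; 117 cells) against 1.94% (1.66 to 2.24; 177 cells), a ratio of 0.632 (0.501 to 0.797). Of NK cell-like cells there were 30 and 62 (0.314% and 0.678%, ratio 0.463, 0.299 to 0.715), and of dendritic cell-like cells, which take up and present antigen, 46 and 83 (0.481% and 0.908%, ratio 0.530, 0.370 to 0.759). All 3 are small classes, and few cells carry these ratios.

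Monocyte-like cells, the circulating precursors of macrophages, were at 7.22% and 8.61% (690 and 787 cells; ratio 0.838, 0.760 to 0.924). Macrophage-like cells were at 9.76% and 10.3% (933 and 937 cells), a ratio whose interval holds 1 (0.952, 0.873 to 1.04). Tumour-like cells were at 53.2% (52.2 to 54.2) and 57.7% (56.7 to 58.7), 5082 and 5272 cells, a ratio of 0.921 (0.898 to 0.945). Unnamed clusters held 18.7% and 14.9% of the cells. Most of those cells had tumour markers, and with those clusters counted as tumour the log2 ratio moved from -0.12 to -0.04, so the lower tumour share of the Mfn2 library rests on where they are placed. One unnamed cluster had macrophage markers beside platelet chemokine genes (382 and 219 cells), and adding it turned the macrophage log2 ratio from -0.07 to 0.12.

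Shares among host cells do not depend on the number of tumour cells recovered. Of the cells outside clusters with tumour markers (3077 and 2751), neutrophil-like cells made up 28.3% and 16.7%, a ratio of 1.70 (1.54 to 1.88). Macrophage-like cells made up 30.3% and 34.1%, and monocyte-like cells 22.4% and 28.6%. T cell-like cells made up 3.80% and 6.43%, NK cell-like cells 0.975% and 2.25%, and dendritic cell-like cells 1.49% and 3.02%. With this denominator every named host class other than neutrophil-like cells was at a lower share in the Mfn2 library. Shares sum to a whole, so a higher share of one class lowers the others. The unnamed cluster with macrophage markers (382 and 219 cells) is in this denominator but not in the macrophage-like class. The lower macrophage-like share therefore depends on where that cluster is placed.

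**Figure D1:**
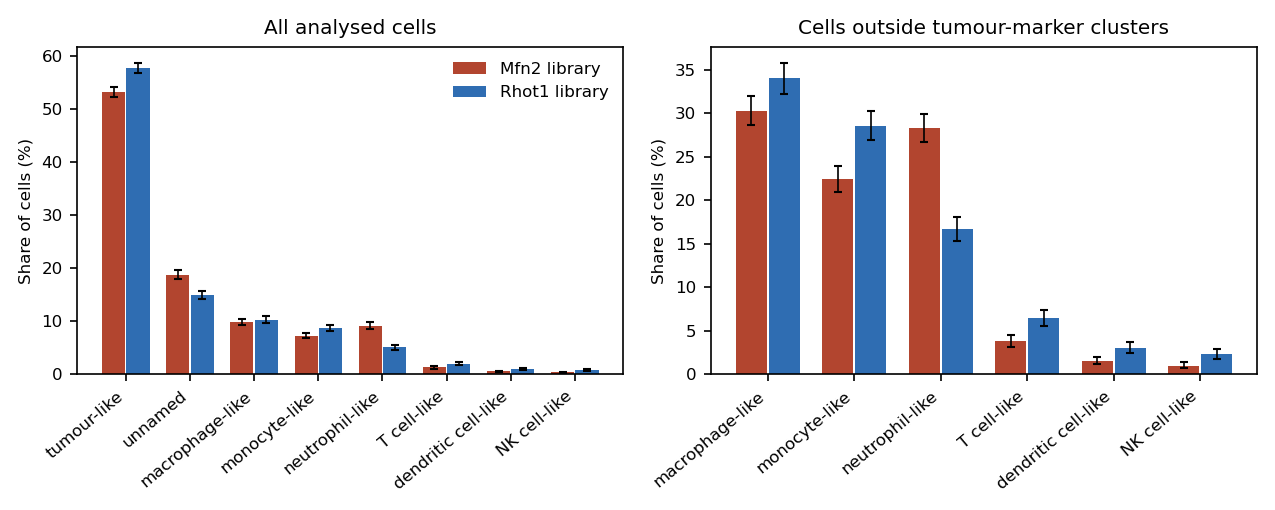
Share of cells (%) in each marker-defined class, of all analysed cells (left) and of cells outside clusters with tumour markers (right), for the Mfn2 library (red) and the Rhot1 library (blue); error bars are exact 95% binomial intervals and cover counting error only. Neutrophil-like cells are at 9.12% against 5.02% of all cells, while T cell-, NK cell- and dendritic cell-like cells are lower in the Mfn2 library in both panels.

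Gene levels were compared within classes, as UMIs summed over the cells of a class. A gene is called past the fold when its CPM ratio, Mfn2 over Rhot1, was 0.8 or less (higher in Rhot1) or at least the inverse of 0.8 (higher in Mfn2), among genes at 10 CPM or more in at least 1 library. In tumour-like cells 111 of 8200 genes (1.35%) were past it towards Mfn2 and 104 (1.27%) towards Rhot1. The same shares were 7.69% and 10.9% of 8267 genes in macrophage-like cells, 10.5% and 10.8% of 7833 in monocyte-like cells, 20.5% and 30.0% of 7001 in neutrophil-like cells, and 33.8% and 32.1% of 9402 in T cell-like cells. The shares grow as the UMIs behind a class shrink, so a count of members is read against its own class. Genes called ranked below are those at 50 CPM or more in at least 1 library, without genes much more abundant in other classes or with over 20% of their UMIs in 1 cell. The median log2 ratio of all genes lay between -0.06 and 0.01 in the 5 classes. Scaling by that median moved the split from 51.6% of the called genes higher in Mfn2 to 73.9% in tumour-like cells (156 and 55 genes), and from 41.5% to 52.3% in macrophage-like cells.

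The tumour-like cells of the Mfn2 library had more RNA of genes of the hypoxia response, and those of the Rhot1 library more of interferon-stimulated and replication genes. Hypoxia-inducible factors switch on genes for glucose uptake, glycolysis and blood vessel growth when oxygen is low, through DNA sites with the core ACGTG. Type I interferon acts through sites of the form GAAANNGAAA, and metals and glucocorticoids raise metallothioneins, the former through sites with the cores TGCACNC or TGCGCNC. The promoter windows below (RefSeq, GRCm38.p6, 250 bases before to 50 after the start, 5' to 3' on the gene's strand) are shown because these genes carry the differences; capitals mark matches to the named core on either strand, and overlapping matches run together.
Ero1a (chr14:45318523-45318822, minus strand, hypoxia core): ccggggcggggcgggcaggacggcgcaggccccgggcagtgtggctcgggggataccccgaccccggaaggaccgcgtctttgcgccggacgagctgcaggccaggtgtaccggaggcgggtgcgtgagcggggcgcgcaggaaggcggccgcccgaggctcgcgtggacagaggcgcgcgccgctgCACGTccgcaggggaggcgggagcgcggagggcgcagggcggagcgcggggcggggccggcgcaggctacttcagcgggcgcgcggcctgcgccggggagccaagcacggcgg
Bnip3 (chr7:138909457-138909756, minus strand, hypoxia core): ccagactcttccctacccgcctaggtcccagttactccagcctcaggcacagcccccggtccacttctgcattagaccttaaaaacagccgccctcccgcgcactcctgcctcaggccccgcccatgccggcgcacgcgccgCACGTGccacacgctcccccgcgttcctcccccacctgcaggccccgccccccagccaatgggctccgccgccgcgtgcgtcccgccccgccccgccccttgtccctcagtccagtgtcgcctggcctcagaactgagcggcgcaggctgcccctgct
Slc2a1 (chr4:119108495-119108794, plus strand, hypoxia core): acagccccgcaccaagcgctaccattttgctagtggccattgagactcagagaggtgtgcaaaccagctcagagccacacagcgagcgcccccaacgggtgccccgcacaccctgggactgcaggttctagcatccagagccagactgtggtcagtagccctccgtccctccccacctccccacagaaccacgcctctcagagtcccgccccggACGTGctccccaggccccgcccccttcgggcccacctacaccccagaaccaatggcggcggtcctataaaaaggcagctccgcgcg
Rsad2 (chr12:26456403-26456702, minus strand, interferon-stimulated form): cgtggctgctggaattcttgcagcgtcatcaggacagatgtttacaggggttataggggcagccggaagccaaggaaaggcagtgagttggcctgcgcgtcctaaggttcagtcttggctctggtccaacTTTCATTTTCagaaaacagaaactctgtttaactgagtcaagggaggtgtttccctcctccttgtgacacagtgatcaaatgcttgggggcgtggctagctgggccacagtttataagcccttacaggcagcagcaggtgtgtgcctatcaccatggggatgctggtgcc
Cxcl10 (chr5:92348840-92349139, minus strand, interferon-stimulated form): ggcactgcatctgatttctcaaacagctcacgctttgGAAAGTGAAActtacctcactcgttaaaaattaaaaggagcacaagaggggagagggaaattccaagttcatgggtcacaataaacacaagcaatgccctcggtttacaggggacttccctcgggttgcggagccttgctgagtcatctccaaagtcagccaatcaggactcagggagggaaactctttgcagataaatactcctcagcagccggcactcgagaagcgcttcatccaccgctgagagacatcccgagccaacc
Mt1 (chr8:94178839-94179138, plus strand, metal cores): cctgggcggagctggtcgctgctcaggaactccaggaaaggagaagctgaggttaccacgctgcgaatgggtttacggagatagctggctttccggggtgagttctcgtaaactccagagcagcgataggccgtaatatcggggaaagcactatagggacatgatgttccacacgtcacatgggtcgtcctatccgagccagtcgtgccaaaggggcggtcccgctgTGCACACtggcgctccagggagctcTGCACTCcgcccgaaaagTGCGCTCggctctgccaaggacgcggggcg

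The hypoxia core has 1 match in the windows of Ero1a and Slc2a1, 2 overlapping matches in that of Bnip3 and none in that of Adm. It occurs in 19.7% of all 27025 windows of this length, and in 12 of the 18 windows matched to the hypoxia list. The interferon-stimulated form has 1 match each in Rsad2 and Cxcl10, occurs in 3.49% of all windows and in 23 of 36 of the interferon-stimulated list. The metal cores occur in 12.4% (TGCACNC) and 15.5% (TGCGCNC) of all windows, and 3 matches lie in that of Mt1. A match describes letters in these windows and shows no binding.

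Of the hypoxia list, 19 of 23 members reached 10 CPM in tumour-like cells. Of these, 9 were past the fold towards Mfn2, where 1.35% of all genes were, and none towards Rhot1, with a median log2 ratio of 0.32 against -0.05 for all genes. Adm, which encodes the vasodilator peptide adrenomedullin, was at 172 CPM in the Mfn2 library and 100.5 CPM in the Rhot1 library (ratio 1.71, 1.67 to 1.76). Ero1a, the oxidase that forms disulphide bonds in the endoplasmic reticulum, was at 179 and 122 CPM (ratio 1.46). Bnip3, a mitophagy receptor on mitochondria, was at 68.8 and 47.8 CPM (ratio 1.44). The lowest members were near or below parity, with Mxi1, an antagonist of Myc, at 75.6 and 68.0 CPM, the histone demethylase Kdm3a at 43.5 and 44.6 CPM, and the cytokinesis protein Anln at 74.2 and 77.3 CPM.

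The size of the hypoxia difference depended on the mix of tumour states. Weighting the 9 tumour-like clusters alike in both libraries lowered the list's median from 0.32 to 0.14, and the medians of single clusters ran from -0.07 to 0.31. A cluster led by Adm and Ndrg1 held 673 and 320 cells (7.04% and 3.50%), with a median of -0.07. Another, led by Adm and Mt2, held 246 and 135 cells (2.57% and 1.48%), with a median of 0.03. The other tumour-like clusters each had more cells in the Rhot1 library. Adm was higher in Mfn2 in 5 of 9 clusters, with cluster ratios from 0.938 to 2.28, while Ero1a (1.15 to 1.45) and Ndrg1 (1.04 to 1.46) were higher in all 9. Per cell, after thinning to 5000 UMIs (4714 and 4899 cells, with 368 and 373 shallower ones left out), the median sum of the list was 9 UMIs for Mfn2 and 7 for Rhot1, and the 90th percentile 22 and 16. Cells with 10 or more such UMIs made up 43.2% and 28.4%, so the difference was present at the centre of the distribution as well as in its upper part.

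Glucose genes differed by less. Of 18 members of the glycolysis list 1 was past the fold towards Mfn2 and none towards Rhot1, with a median of 0.21. The shares of all genes were 1.35% and 1.27%. The glycolysis member past the fold is Slc2a1, the glucose transporter of most proliferating cells, at 168 and 113 CPM (ratio 1.49, 1.45 to 1.52). Pgk1, a phosphoglycerate kinase, was at 1132 and 915 CPM (ratio 1.24), just inside the fold, and Pfkm, the muscle phosphofructokinase, at 11.6 and 11.7 CPM.

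Among the 10 highest ranked genes towards Mfn2 were both common metallothioneins, which bind zinc and copper. Mt1 was at 1278 and 816 CPM (ratio 1.57, 1.55 to 1.58) and Mt2 at 464 and 309 CPM (log2 ratio 0.59). Slpi, a secreted inhibitor of leukocyte proteases, was at 112 and 65.7 CPM (ratio 1.70), and Sat1, which starts the breakdown of polyamines, at 345 and 239.6 CPM (ratio 1.44). Ndrg1, a stress-induced gene of the hypoxia list, was at 251 and 175 CPM (ratio 1.43). Id3, an inhibitor of helix-loop-helix factors, was at 70.8 and 48.6 CPM (ratio 1.46), and Ecm1, a matrix protein, at 128 and 89.3 CPM (ratio 1.43).

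Haem and iron genes of tumour-like cells pointed both ways. Fth1, the ferritin heavy chain, was at 8560 and 6216 CPM (ratio 1.38), and Hmox1, the oxygenase that frees iron from haem, at 78.0 and 42.2 CPM (ratio 1.85). Tfrc, the transferrin receptor that takes up iron, was at 55.0 and 79.8 CPM (0.689, 0.664 to 0.715), the lowest ratio among the ranked genes. Lcn2, a siderophore-binding protein of neutrophil granules, was at 13.5 and 5.21 CPM. Of 9 measured members 3 were past the fold towards Mfn2 and 1 towards Rhot1, beside 1.35% and 1.27% of all genes.

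Immediate early genes, which respond within minutes to growth factors and to stress including tissue dissociation, were past the fold towards Mfn2 in 4 of 14 and towards Rhot1 in none (median 0.19). The shares of all genes were 1.35% and 1.27%. Dusp1, a phosphatase of MAP kinases, was at 61.5 and 43.1 CPM, and Fosb, a subunit of AP-1, at 111.7 and 80.4 CPM.

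On the other side, 7 of 14 measured interferon-stimulated genes of tumour-like cells were past the fold towards Rhot1, where 1.27% of all genes were, and none towards Mfn2 (median -0.31). Within the 9 clusters the medians ran from -0.68 to 0.12, and the clusters with the most cells were at -0.05, -0.12, 0.12 and -0.01. A cluster led by interferon-stimulated genes held 45 cells of the Mfn2 library and 106 of the Rhot1 library (0.471% and 1.16%), with a median of -0.34. Weighting the clusters alike gave -0.31, but it gives this small cluster the same weight as the largest. Rsad2, which encodes the antiviral enzyme viperin, was at 6.65 and 18.7 CPM (ratio 0.356). Cxcl10, a chemokine that attracts Cxcr3-bearing T and NK cells, was at 6.98 and 16.3 CPM (ratio 0.427), and Isg15, a ubiquitin-like modifier, at 21.5 and 33.6 CPM (ratio 0.642). The highest member was Oasl1, an oligoadenylate synthetase-like gene, at 16.6 and 15.3 CPM. These RNAs were concentrated in few cells. After thinning to 5000 UMIs the median cell had 2 interferon-stimulated UMIs in both libraries, whereas the 99th percentile was 18 and 28.0 UMIs. Cells with 10 or more made up 3.52% and 5.10%, and the top 5% of cells held 25.4% and 32.1% of these UMIs.

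Replication genes were lower in the Mfn2 library by small and even steps. Of 24 S phase genes 4 were past the fold towards Rhot1 and none towards Mfn2 (median -0.19), and of 24 G2/M genes 1 and 0 (median -0.17). Mcm7, a subunit of the replicative helicase, was at 77.6 and 101 CPM (ratio 0.767, 0.743 to 0.792), and Uhrf1, which carries DNA methylation through replication, at 54.2 and 69.0 CPM (ratio 0.786). The PCNA partner Pclaf was at 143 and 183 CPM (ratio 0.780), and the linker histone H1f5 at 252 and 354 CPM (ratio 0.711, lower in all 9 clusters). Histone genes such as H1f5 and H4c4 (91.1 and 123 CPM) belong to families of near-identical copies, as does the tubulin gene Tuba1c (102 and 135 CPM), so how reads were assigned can affect their levels.

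The remaining ranked genes towards Rhot1 come from several processes. Nmt1, an N-myristoyltransferase, was at 112 and 154 CPM (ratio 0.728), and S100a4, a calcium-binding protein linked to cell motility, at 1009.5 and 1331 CPM (ratio 0.758); both were lower in all 9 clusters. Larp7, a partner of the 7SK RNA, was at 54.3 and 71.4 CPM, and Dync1i2, an intermediate chain of the dynein motor, at 102 and 130 CPM. Of 8 measured bone remodelling signals 1 was past the fold, the osteoclast-promoting cytokine Il11 at 13.5 and 20.6 CPM (ratio 0.657). Pthlh, the parathyroid hormone-related protein by which tumours drive bone resorption, was at 73.2 and 70.7 CPM. Cholesterol synthesis had 3 of 19 members past the fold towards Rhot1, where 1.27% of all genes were, and none towards Mfn2 (median -0.21). The lowest was the lanosterol synthase Lss at 11.1 and 14.7 CPM.

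**Figure D2:**
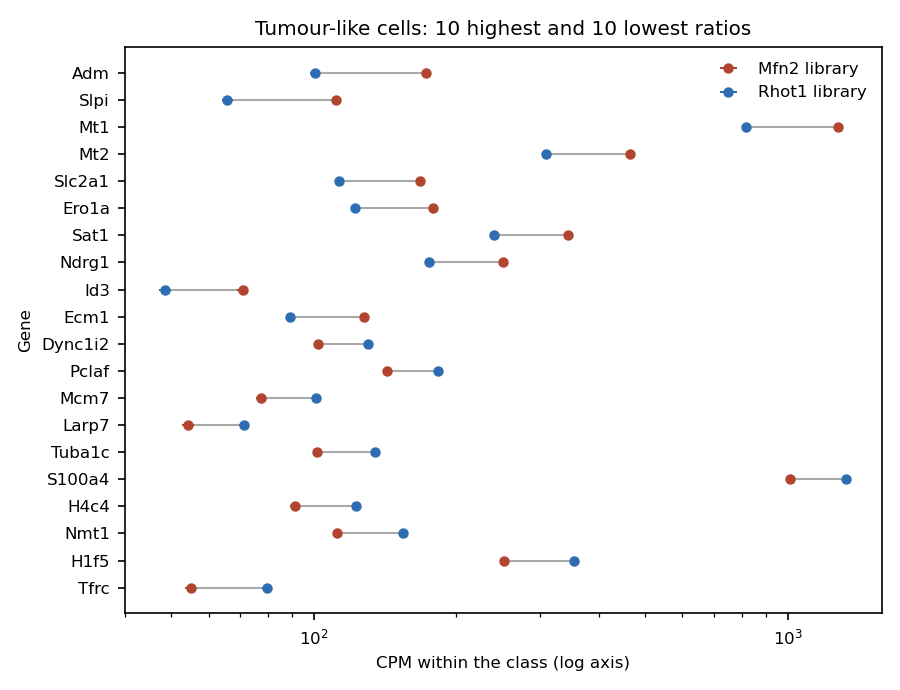
Levels (CPM within tumour-like cells, log axis) of the 10 highest and the 10 lowest of the ranked genes by ratio, Mfn2 over Rhot1, in the Mfn2 library (red) and the Rhot1 library (blue); bars, mostly hidden by the points, are exact 95% Poisson intervals. The upper 10, from Adm to Ecm1, are 1.43 to 1.71 times as high in the Mfn2 library and the lower 10, from Dync1i2 to Tfrc, 0.689 to 0.784 times as high.

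Nuclear genes for mitochondrial proteins were close to parity in tumour-like cells. None of 46 nuclear oxidative phosphorylation genes was past the fold (median -0.03), and none of 19 genes of mitochondrial fusion, fission and transport (median -0.10), where the inner-membrane fusion GTPase Opa1 was at 34.3 and 40.8 CPM. Of 11 measured mitochondrially encoded genes 1 was past the fold each way (median -0.08), mt-Co3 at 13.9 and 10.5 CPM and mt-Nd6 at 17.4 and 23.9 CPM. Of 7 measured cGAS-STING genes, the pathway that senses DNA in the cytosol, none was past the fold (median -0.11), and of 18 MHC class I presentation genes none (median -0.02). RNA of neutrophil markers differed within this class: their sum was 173 CPM in the Mfn2 library and 100.1 CPM in the Rhot1 library, led by S100a8 (77.0 and 41.7 CPM), with none of the 10 markers at 0 in either. The part of free or neighbouring RNA in Lcn2, S100a8 and S100a9 was not tested.

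Macrophage-like cells of the Mfn2 library had more RNA of the hypoxia, glycolysis, MHC class II and acute-phase lists, and those of the Rhot1 library more of cell cycle genes. The largest ratio among the named genes was that of Saa3, an acute-phase serum amyloid made by macrophages, with 458 CPM (439 to 478) against 77.0 CPM (69.6 to 84.9), a ratio of 5.95 (5.35 to 6.64). The cell with the most Saa3 held 15.9% (Mfn2) and 13.4% (Rhot1) of its UMIs. Both macrophage-like clusters showed the direction (2.61 and 6.17), and the log2 ratio stayed between 2.25 and 2.76 under every alternative tried.

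Also higher in Mfn2 were the coagulation factor genes F10 (66.9 and 29.3 CPM, ratio 2.28) and F7 (50.2 and 24.3 CPM, ratio 2.06). Lyz1, a lysozyme nearly identical to Lyz2, was at 117 and 52.7 CPM (ratio 2.22), and Ifitm1, an interferon-induced membrane protein, at 259 and 137 CPM (ratio 1.89). S100a8, one of the neutrophil markers, was at 366 and 182 CPM (ratio 2.01). When cells were classed by their highest marker score instead, S100a8 and Ifitm1 changed direction (log2 ratio -0.70 and -0.09). Of 11 measured granule and acute-phase genes 8 were past the fold towards Mfn2, where 7.69% of all genes were, and none towards Rhot1 (median 0.73). Summed neutrophil markers in the class were at 911 and 545 CPM, none of 10 at 0 in either library, erythroid markers at 421 and 299 CPM, and tumour markers at 284 and 232 CPM; their part in these differences was not tested.

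MHC class II genes, through which macrophages present peptides to CD4 T cells, were past the fold towards Mfn2 in 5 of 8 members and towards Rhot1 in none (median 0.50, and 0.51 and 0.42 in the 2 clusters). The shares of all genes were 7.69% and 10.9%. Ciita, the master regulator of the family, was at 17.2 and 11.1 CPM, H2-Ab1 at 604 and 407 CPM and H2-Eb1 at 435 and 295 CPM. H2-DMa, which helps to load peptides, was at 114 and 115 CPM. Thinned to 1500 UMIs, the median cell had 4 class II UMIs in both libraries and the 90th percentile was 29 and 21, so the difference lay in the cells with high class II levels.

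Of 17 glycolysis genes 8 were past the fold towards Mfn2 and none towards Rhot1 (median 0.32), and of 19 hypoxia genes 11 and 1 (median 0.33). The shares of all genes were 7.69% and 10.9%. Slc2a1 was at 122 and 76.2 CPM, and Pfkfb3, which makes the activator of phosphofructokinase, at 47.0 and 29.5 CPM. Adm was at 32.1 and 14.7 CPM and the hypoxia-induced ankyrin gene Ankrd37 at 48.2 and 25.5 CPM. The tissue-repair enzyme Arg1, which breaks down arginine, was at 1876 and 1131 CPM (ratio 1.66), and Spp1, the matrix protein osteopontin, at 2114 and 1458 CPM (ratio 1.45). Iron handling again had Hmox1 higher in Mfn2 (1729 and 1064 CPM), while Tfrc (31.7 and 44.0 CPM) and the iron exporter Slc40a1 (14.4 and 32.4 CPM, ratio 0.447) were lower.

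Cell cycle genes were lower in macrophage-like cells of the Mfn2 library, 20 of 22 G2/M genes past the fold towards Rhot1, where 10.9% of all genes were, and none towards Mfn2 (median -0.72), and 14 of 21 S phase genes and none (median -0.38). Kif11, a mitotic kinesin, was at 7.44 and 18.4 CPM, Plk1, a mitotic kinase, at 7.86 and 17.6 CPM, and Ube2c, a ubiquitin-conjugating enzyme of mitotic exit, at 38.9 and 75.3 CPM (ratio 0.517). Thinned to 1500 UMIs, the mean of G2/M UMIs per cell was 0.726 and 1.12, and 61.5% and 52.3% of the cells had none. Keeping the doublets moved the list's median from -0.72 to -0.16.

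Chemokines of the macrophage-like class went both ways. Ccl12, a monocyte attractant, was at 576 and 1180.1 CPM (ratio 0.488, 0.466 to 0.511), Ccl8 at 3256 and 5933 CPM (ratio 0.549) and Ccl5 at 59.7 and 136 CPM (ratio 0.439), while the neutrophil-attracting Cxcl3 was at 163 and 108 CPM and Ccl9 at 2580.2 and 2106 CPM (ratio 1.22). Of 14 measured chemokine and colony-stimulating factor genes 2 were past the fold towards Mfn2 and 6 towards Rhot1 (median -0.25). The shares of all genes were 7.69% and 10.9%. Fcrls, an Fc receptor-like gene of tissue-resident macrophages, had the lowest ratio among the ranked genes, 47.8 and 169 CPM (0.284, 0.244 to 0.329). Mgl2, a galactose-binding lectin of alternatively activated macrophages and dendritic cells, was at 55.7 and 127 CPM (ratio 0.440), and Hpgds, a prostaglandin D synthase, at 62.9 and 119.9 CPM (ratio 0.525).

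Inflammatory lists of the macrophage-like class had more members past the fold towards Rhot1 (10.9% of all genes) than towards Mfn2 (7.69%), with medians near that of all genes. NF-kB targets had 2 of 22 towards Mfn2 and 7 towards Rhot1 (median -0.10), and interferon-stimulated genes 2 and 10 of 42 (median -0.11); clustering the libraries separately gave 0.31 for the latter. Oxidative phosphorylation had 0 and 1 of 46 past the fold (median -0.10), and fusion, fission and transport genes 1 and 0 of 17 (median -0.01).

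Monocyte-like cells differed in inflammatory genes. NF-kB, the factor that drives the response to tumour necrosis factor, interleukin-1 and bacterial products, had 12 of 22 measured targets past the fold towards Rhot1, where 10.8% of all genes were, and none towards Mfn2 (median -0.36 against 0.01 for all genes; -0.44 and -0.18 in the 2 clusters). Ptgs2, which makes prostaglandins, was at 109 and 235 CPM (ratio 0.462, 0.402 to 0.531), Tnfaip3, a brake on NF-kB, at 15.9 and 32.3 CPM, and the activation marker Cd83 at 13.2 and 25.5 CPM. Il1b, the inflammatory cytokine, was at 1159 and 1882 CPM (ratio 0.616), and Il1rn, which blocks its receptor, at 48.9 and 129 CPM (ratio 0.379, 0.308 to 0.464), so the cytokine and its antagonist were both lower in Mfn2.

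The nuclear receptors Nr4a1 (77.3 and 142 CPM, ratio 0.543) and Nr4a2 (47.4 and 92.0 CPM, ratio 0.515), induced early by stimulation, and the chemerin receptor-like gene Ccrl2 (33.0 and 78.4 CPM, ratio 0.421) complete the 5 lowest ranked genes. Immediate early genes counted 1 of 19 towards Mfn2 and 7 towards Rhot1 (median -0.05), beside 10.5% and 10.8% of all genes. Chemokines counted none and 7 of 14 (median -0.38), with Ccl5 at 62.9 and 142 CPM.

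Interferon-stimulated genes were past the fold towards Rhot1 in 21 of 45 and towards Mfn2 in 2 (median -0.26), beside 10.8% and 10.5% of all genes. This median rests on the mix of the 2 monocyte-like clusters. One of them, which is led by interferon-stimulated genes, held 80 cells of the Mfn2 library and 133 of the Rhot1 library, and within the clusters the medians were 0.18 and -0.12. Weighted alike they gave -0.07. Thinned to 1500 UMIs, the median cell had 2 such UMIs in both libraries, and 11.8% and 16.9% of cells had 10 or more.

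The highest ranked genes of this class included secreted and acute-phase genes. Chil3, a chitinase-like protein of monocytes and one of the markers that named the class, was at 1445 and 652 CPM (ratio 2.22, 2.10 to 2.34). Ms4a8a, a tetraspan membrane protein, was at 85.0 and 38.6 CPM (ratio 2.21), Lrg1, an acute-phase glycoprotein, at 121.5 and 57.8 CPM (ratio 2.10), and Wfdc21 at 189 and 100.1 CPM (ratio 1.88). Dhrs3, a retinal reductase, was at 68.7 and 38.9 CPM. Saa3 was at 201 and 21.8 CPM (ratio 9.22). It was left out of the ranking because 1 cell held over 20% of its UMIs in at least 1 library. Of 13 granule and acute-phase genes 7 were past the fold towards Mfn2, where 10.5% of all genes were, and 3 towards Rhot1 (median 0.43); the 3 are the secondary-granule genes Camp (1.16 and 20.5 CPM) and Ngp (1.94 and 15.9 CPM) and the gelatinase gene Mmp9 (14.4 and 48.5 CPM). In the Rhot1 library 1 cell held 90.9% of the Camp UMIs and 1 cell 88.2% of the Ngp UMIs. Summed neutrophil markers were at 2688 and 1910 CPM in the class, and their part was not tested.

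**Figure D3:**
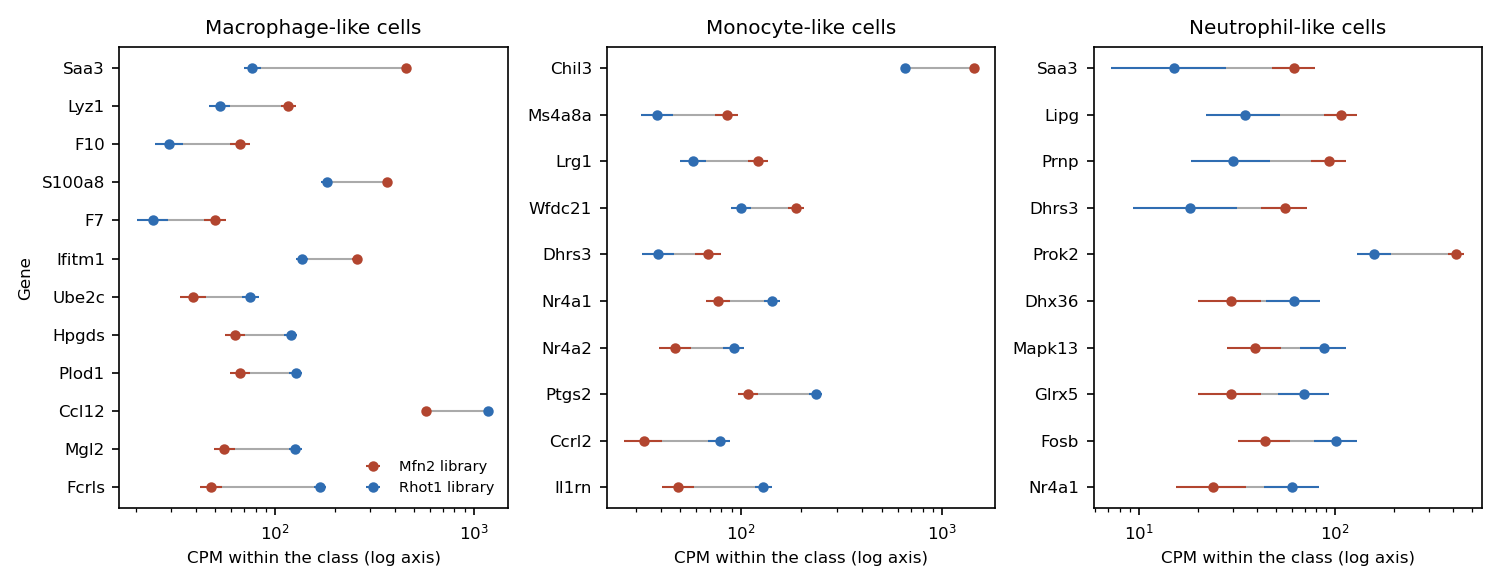
Levels (CPM within the class, log axis) of the highest and lowest ranked genes by ratio, Mfn2 over Rhot1, in macrophage-, monocyte- and neutrophil-like cells of the Mfn2 library (red) and the Rhot1 library (blue); bars are exact 95% Poisson intervals. Saa3 stands at 458 against 77.0 CPM in macrophage-like cells, and intervals widen in neutrophil-like cells, which have the fewest UMIs of these 3 classes.

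In neutrophil-like cells NF-kB targets were lower in Mfn2 as well. Of 22 measured members 18 were past the fold towards Rhot1 and none towards Mfn2, where 30.0% and 20.5% of all genes were (median -0.54 against -0.06). Tnf was at 14.3 and 49.8 CPM (ratio 0.287), the adhesion molecule Icam1 at 7.63 and 22.6 CPM, and Il1a at 1.91 and 13.6 CPM. Il1b, the most abundant of these cytokine genes, was at 4895 and 8041 CPM (ratio 0.609). The NF-kB median stayed between -0.63 and -0.47 under all alternatives, which include the stricter cell filter. Chemokines counted 1 of 13 towards Mfn2 and 8 towards Rhot1 (median -0.55), with Ccl5 at 6.68 and 36.2 CPM.

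The highest ranked genes of the neutrophil-like class were Saa3 (62.0 and 15.1 CPM), the endothelial lipase gene Lipg (107 and 34.7 CPM, ratio 3.08, 1.95 to 5.05), the prion protein gene Prnp (92.5 and 30.2 CPM), Dhrs3 (55.3 and 18.1 CPM) and Prok2 (414 and 159 CPM, ratio 2.61, 2.11 to 3.26), a chemotactic peptide of neutrophils. Among the lowest were Nr4a1 (23.8 and 60.4 CPM) and Fosb (43.9 and 101 CPM), both early response genes, the glutaredoxin Glrx5 (29.6 and 69.4 CPM), the kinase gene Mapk13 (39.1 and 87.6 CPM) and the helicase gene Dhx36 (29.6 and 61.9 CPM). In the library with fewer UMIs these 10 genes rest on 10 to 105 UMIs, and with the stricter filter Saa3 and Fosb changed direction. Macrophage markers in the class summed to 544 and 793 CPM, with none of 10 at 0, and tumour markers to 272 CPM in both.

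Glycolysis counted 7 of 17 genes towards Mfn2 and none towards Rhot1 in neutrophil-like cells (median 0.24), and hypoxia 9 and 2 of 19 (median 0.22). Pfkfb3 was at 295 and 159 CPM and Slc2a1 at 299 and 208 CPM. Granule genes had 4 of 16 members past the fold towards Mfn2 and 5 towards Rhot1 (median 0.14), near the 20.5% and 30.0% of all genes. The collagenase Mmp8 was at 1178 and 519 CPM (ratio 2.27) and Lcn2 at 4449 and 3492 CPM (ratio 1.27), whereas lactoferrin (Ltf, 385 and 867 CPM, ratio 0.445) and Ngp (1812 and 3389 CPM) were lower in Mfn2. Mitochondrially encoded genes were past the fold towards Rhot1 in 8 of 9 (median -1.16), with mt-Nd1 at 223 and 654 CPM and mt-Cytb at 699 and 1771 CPM. In the 41 and 36 cells of the stricter filter that median was 0.10. The median share of mitochondrial UMIs per cell was 0.519% and 0.661%.

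**Figure D4:**
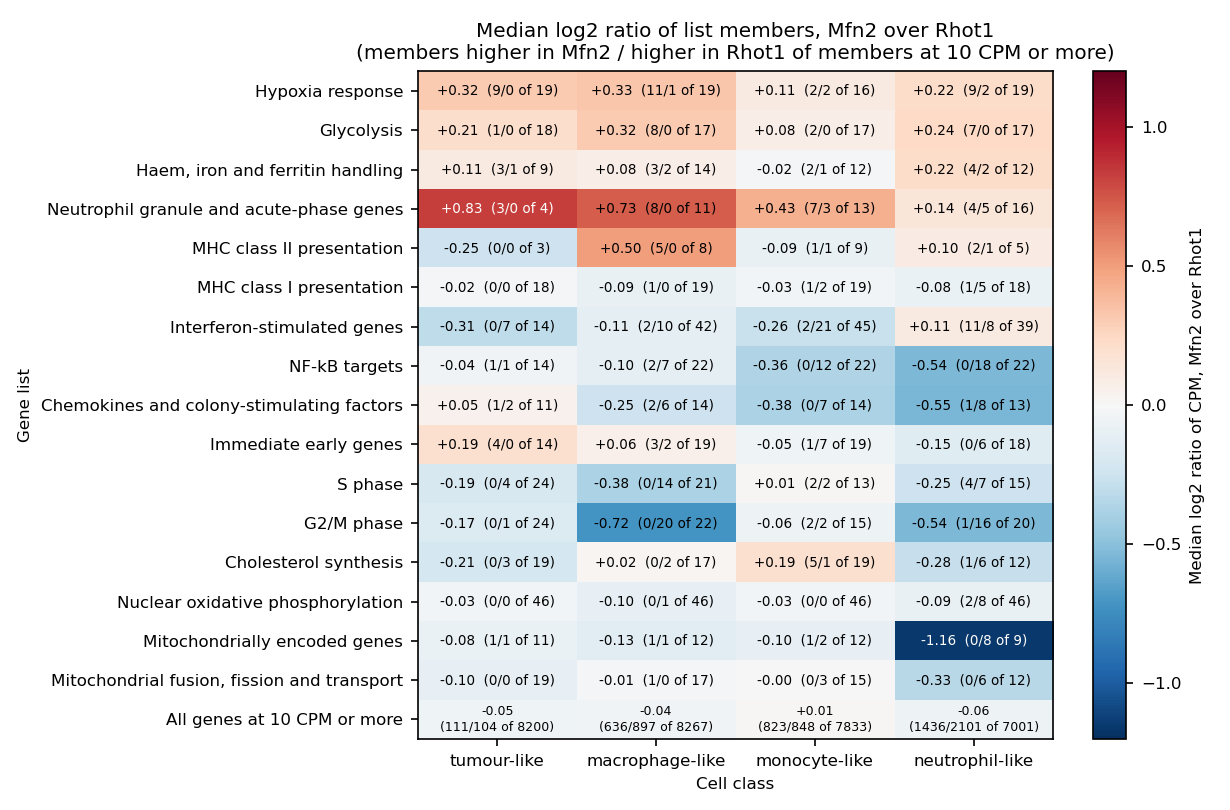
Median log2 ratio of CPM, Mfn2 over Rhot1, of the members of selected gene lists (vertical) in 4 classes (horizontal), with the members higher in Mfn2, the members higher in Rhot1 and the number measured in each cell; the lowest line gives all genes at 10 CPM or more. The hypoxia median is above 0 in all 4 columns (0.32, 0.33, 0.11 and 0.22). In monocyte-like cells, however, 2 of 16 hypoxia members were past the fold each way, near the 10.5% and 10.8% of all genes. That median ran from -0.01 to 0.26 over the alternatives. NF-kB targets run from -0.04 in tumour-like to -0.54 in neutrophil-like cells.

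T cell-like cells cannot be read without a look at depth. In the Mfn2 library 10 of the 117 cells were deeper than 5 times the class median and held 45.7% of the class's UMIs, and in the Rhot1 library 2 of 177 held 5.47%. Tumour markers summed to 772 and 180 CPM with these cells, and to 203 and 183 CPM without them. T cell markers summed to 2834 and 4512 CPM with them and to 4823 and 4773 CPM without.

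Most list differences of this class were smaller without the deep cells. With those cells left out, 31.5% of 9075 genes were past the fold towards Mfn2 and 28.0% towards Rhot1. Interferon-stimulated genes went from 30 of 42 past the fold towards Rhot1, where 32.1% of all genes were (2 towards Mfn2, median -0.71) to 11 of 41 (9 towards Mfn2, median -0.06), and MHC class I genes from 16 of 20 (median -0.62) to 5 of 20 (median -0.14). Effector and exhaustion genes turned from a median of -0.34 to 0.24. Glycolysis stayed towards Mfn2, with 11 of 17 (33.8% of all genes) and a median of 0.63 before and 9 of 17 and 0.39 after. Of the named genes, Cd69, an early activation and retention marker, was at 59.4 and 221 CPM with all cells and at 89.7 and 233 CPM without the deep ones (ratio 0.385, 0.233 to 0.611). Gpr18, a lipid receptor of lymphocytes, was at 14.8 and 65.3 CPM and at 27.3 and 69.0 CPM. The highest ranked genes were Serpinh1, a collagen chaperone (129 and 13.5 CPM), the membrane repair gene Myof (108 and 13.5 CPM) and Egln3 of the hypoxia list (95.4 and 15.8 CPM); without the deep cells they were at 39.0 and 14.3, 54.6 and 14.3, and 23.4 and 16.7 CPM.

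Few genes were past the fold in the same direction in most classes. Of 7042 genes measured in at least 4 of the 5 classes, 32 (0.454%) were higher in Mfn2 and 31 (0.440%) higher in Rhot1 in 4 or more, and 4 and 3 in all 5. Adm, Prtn3, Mt2 and Lcn2 were higher in Mfn2 in all 5, the smallest log2 ratios of the first 3 being 0.72, 0.60 and 0.59. The T cell-like values given for recurring genes include the deep cells, which held 45.7% of that class's UMIs in the Mfn2 library. Without the deep cells Adm had 7 and 3 UMIs there, and Lcn2 3 and 3. Prtn3, a serine protease of myeloid precursors, had 8 UMIs against 1 in T cell-like cells and was highest in monocyte-like cells (120.4 and 73.7 CPM). Hmox1 was higher by 0.89, 0.70, 0.70 and 0.72 in tumour-, macrophage-, monocyte- and neutrophil-like cells and lower in T cell-like cells (-0.85), where it had 10 and 17 UMIs. Fkbp5, a chaperone gene induced by glucocorticoids, was higher by 1.21, 0.78, 1.13 and 0.61 in the 4 leukocyte classes and by 0.17 in tumour-like cells (36.3 and 32.3 CPM).

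Towards Rhot1, Rsad2 was lower in Mfn2 by log2 ratios of -1.49, -1.04, -0.54 and -0.56 in tumour-, macrophage-, monocyte- and neutrophil-like cells, and higher in T cell-like cells (0.50). Ccl8 was at -0.87 in both tumour- and macrophage-like cells, -0.15 in monocyte-like, -0.73 in neutrophil-like and -1.29 in T cell-like cells. Tnf was at -0.69, -0.65, -1.80 and -1.67 in the 4 leukocyte classes and was under 10 CPM in tumour-like cells. Dck, the kinase that salvages deoxycytidine, was at -0.81, -0.58, -0.81 and -0.82 in the same classes. Free RNA of one class can enter droplets of every class, and its part in genes that recur across classes was not tested.

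One of the recurring genes lies beside a targeted gene. Zfp984, a zinc finger gene at chr4:147753974-147809788 (minus strand, mm10), lies 63.8 kb from Mfn2. In macrophage-like cells it had 10 and 98 UMIs (2.13 and 18.8 CPM, ratio 0.113, 0.0527 to 0.217). In monocyte-like cells it had 10 and 59 UMIs (ratio 0.212), in neutrophil-like cells 3 and 8, and in T cell-like cells 2 and 11. In tumour-like cells it had 828 and 931 UMIs, 9.68 and 10.3 CPM (ratio 0.937, 0.852 to 1.03). Zfp984 was thus lower in the Mfn2 library in the leukocytes of the host and near parity in the injected cells. It belongs to a cluster of similar zinc finger genes, so how reads were assigned can affect its level.

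Plod1, a lysyl hydroxylase of collagen that lies 5.05 kb beyond the other end of Mfn2 (chr4:147909753-147936767, minus strand), was at 66.7 and 127 CPM in macrophage-like cells (ratio 0.525, 0.457 to 0.601). It was at 31.8 and 44.2 CPM in monocyte-like cells (ratio 0.721) and at 116 and 97.8 CPM in tumour-like cells (ratio 1.18). Miip, 4.78 kb from Mfn2, had ratios of 0.573 in macrophage-like, 0.971 in monocyte-like and 1.00 in tumour-like cells. Both neighbours were thus lower in macrophage-like cells of the Mfn2 library, and neither was lower in its tumour-like cells.

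In a window of 5 Mb on either side of Mfn2, chosen after the values were seen, 10 of 47 measured genes (21.3%) were past the fold towards Rhot1 in macrophage-like cells, beside 10.8% of other genes, and 5 (10.6%) towards Mfn2, beside 7.68%. In monocyte-like cells 13 of 43 (30.2%) were past it towards Rhot1 and 11 (25.6%) towards Mfn2, beside 10.7% and 10.4% of other genes. In neutrophil-like cells the shares were 37.1% towards Rhot1 and 25.7% towards Mfn2 (29.97% and 20.5% of other genes), and in T cell-like cells 25.5% and 48.9% (32.1% and 33.7%), so the latter leaned the other way. In tumour-like cells the counts were 0 and 1 of 45. Tnfrsf9, the costimulatory receptor 4-1BB, 3010 kb from Mfn2, had 10 and 144 UMIs in monocyte-like cells (3.88 and 44.8 CPM). In tumour-like cells Tnfrsf9 went the other way, with a log2 ratio of 0.75, and is the 1 gene counted there. Around Rhot1 13 of 90 (14.4%) were past the fold towards Rhot1 in macrophage-like cells, beside 10.8% of other genes. Towards Mfn2 10 (11.1%) were, beside 7.66%. In monocyte-like cells these were 15 of 90 (16.7%) and 9 (10%), beside 10.8% and 10.5%. The shares were 27.5% and 17.6% in neutrophil-like cells (30.0% and 20.6% of other genes) and 31.4% and 35.3% in T cell-like cells (32.1% and 33.8%). In tumour-like cells 2 of 87 were past it each way. The genes near Rhot1 include Ccl12 and Ccl8, which lie 1834 and 1847 kb beyond it and were lower in macrophage-like cells of the Mfn2 library. They also include Wfdc21, 3479 kb beyond Rhot1, which was higher in Mfn2 in monocyte-like cells (ratio 1.88). Likewise Dhrs3, 2945 kb from Mfn2, was higher in Mfn2 in monocyte-like (ratio 1.77) and neutrophil-like cells (ratio 3.05). The strain of the hosts is not given in the sources used here, and its part in these values was not tested.

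**Figure D5:**
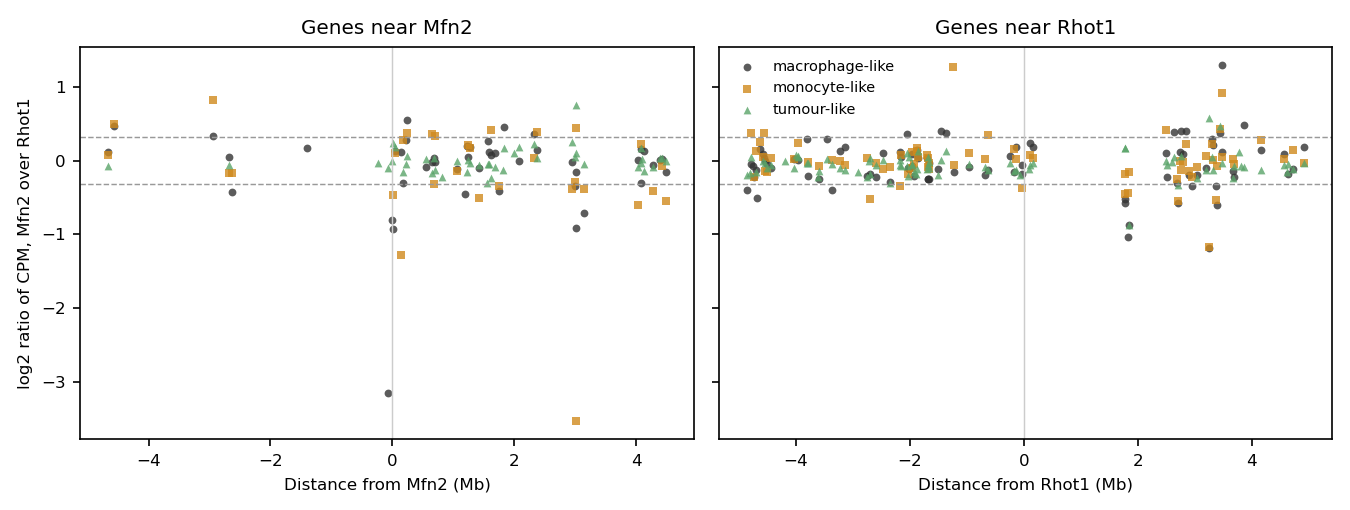
Log2 ratio of CPM, Mfn2 over Rhot1 (vertical), of genes within 5 Mb of Mfn2 (left) and of Rhot1 (right) against their distance (Mb), in macrophage- (circles), monocyte- (squares) and tumour-like cells (triangles); genes with 100 or more UMIs over both libraries are drawn and dashed lines mark the fold (0.32 on the log2 scale either way). The lowest points near Mfn2 are Tnfrsf9 in monocyte-like cells (-3.53) and Zfp984 in macrophage-like cells (-3.14). The tumour-like points near Mfn2 stay near 0 with 1 gene above the fold, which is Tnfrsf9 (0.75).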

How the data were processed

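RNA was measured by droplet 3' single-cell sequencing in 3 libraries, each from 3 pooled mice, of which the Mfn2 and Rhot1 libraries were compared. The deposited matrices hold raw UMI counts per gene and barcode. Per the file headers they come from Cell Ranger 7.0.0, and the submitters' processing notes name the build mm10; neither names an annotation or says whether intronic reads were counted. GENCODE M21, used for coordinates, matched 52081 of 55357 gene identifiers (94.1%).

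Cells with 300 genes or more and at most 15% mitochondrial UMIs were kept, and doublets marked by Scrublet in scanpy 1.11.5 were removed. Counts were log-normalised to 10000 UMIs, reduced to 2000 variable genes and 30 principal components, and clustered jointly with leidenalg 0.10.2 at resolution 1 on a graph of 15 neighbours, with no integration. A cluster was named from marker sets by its difference from other coarse groups, needed 3 detected markers, and stayed unnamed where its 10 leading genes marked another class or it was shallow with no leading marker. The naming rule and its thresholds were set with the data known.

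UMIs were summed per class and library and expressed per 1000000 (CPM). The genes named are those with the highest and lowest log2 ratios with a pseudocount of 5 CPM among genes at 50 CPM or more: 10 each way in tumour-like, 6 in macrophage-like, 5 in monocyte- and neutrophil-like and 3 in T cell-like cells. Mitochondrial, ribosomal, haemoglobin, immunoglobulin, receptor segment, X-inactivation, Y-linked and unnamed genes were left out. So were genes whose class level was far below their level in the whole data. Genes with over 20% of their UMIs in 1 cell were also left out (345 of them in T cell-like cells). Up to 3 highest and 3 lowest members of each of 35 lists, up to 10 genes recurring in 4 classes, and Mfn2, Rhot1 and Dmp1 could also be named. A result that the rule would name in T cell-like cells is not reported here. Miip, Tnfrsf9 and Il1b of neutrophil-like cells fall outside these rules and were chosen after their values were seen. Other values of genes named in one class are given in further classes for comparison. The members and lists were chosen with earlier results of these data known. Interval and fold computations were checked on simulated counts with known changes. Alternatives changed the filter, doublet removal, clustering, naming, scaling, weighting and floors; adding an unnamed macrophage-marker cluster and leaving out deep cells were alternatives chosen after seeing the data. Tables used pandas 2.3.3, numpy 2.4.6 and scipy 1.17.1, and figures matplotlib 3.10.9.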

Additional observations from a re-analysis of the deposited data

Results flagged for a closer look

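In 3 lists the median moved one way in one class and the other way in another, and these differences between classes were not tested. Collagen and matrix genes had a median log2 ratio, Mfn2 over Rhot1, of 1.65 in T cell-like cells and -0.73 in neutrophil-like cells. MHC class II genes were at 0.50 in macrophage-like and -1.002 in T cell-like cells, and neutrophil granule and acute-phase genes at 0.73 and -0.93. Each of these contrasts has the T cell-like class on one side. Without its deep cells the 3 medians in T cell-like cells were 0.30, -0.02 and -0.02.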

How the results depend on the processing

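The log2 ratio of the tumour-like share, Mfn2 over Rhot1, was -0.12 as reported. It was 0.046 with the stricter cell filter (1000 genes, 10% mitochondrial UMIs), -0.072 with doublets kept, -0.058 at resolution 0.5, -0.049 at resolution 2, -0.0056 with wild-type cells added to the clustering, 0.0060 with each library clustered on its own, -0.025 with a marker score per cell and -0.044 with unnamed tumour-marker clusters added. The macrophage-like share (-0.07) was at 0.13 at resolution 0.5, 0.35 with each library on its own and 0.12 with the unnamed macrophage-marker cluster added, an alternative chosen after seeing the data. The monocyte-like share (-0.25) was at -0.76 with each library on its own and -0.082 with the marker score. The neutrophil-like share (0.86) was at 0.17 with the stricter filter, which left 41 and 36 cells. The dendritic cell-like share (-0.92) was at -2.02 with that filter and -1.57 at resolutions 0.5 and 2. The T cell-like share ran from -0.88 to -0.50 and the NK cell-like share from -1.43 to -0.66; clustering each library on its own gave no NK cell- or dendritic cell-like ratio. The cause of these shifts was not tested.

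Among list medians, hypoxia in tumour-like cells (0.32) was 0.14 with clusters weighted alike and G2/M in macrophage-like cells (-0.72) was -0.16 with doublets kept. With the marker score S100a8 and Ifitm1 in macrophage-like cells were at -0.70 and -0.088. In neutrophil-like cells the stricter filter gave 0.10 for mitochondrially encoded genes, 0.91 for collagens, -3.67 for Saa3 and 0.73 for Fosb. In T cell-like cells keeping doublets gave -0.022 for collagens, 0.78 for granule genes and 0.063 for effector genes. Effector genes were also at 0.31 at resolution 2, 0.31 with wild-type cells, 0.24 with the marker score, 0.24 without deep cells (chosen after seeing the data) and 0.18 with equal weight of cells. The marker score gave 0.33 for MHC class II and -0.87 for Egln3 there.

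The number of genes past the fold depends on the floor by construction. With no floor it was 7427, 6023, 5509 and 7199 in tumour-, macrophage-, monocyte- and neutrophil-like cells, against 215, 1533, 1671 and 3537 at 10 CPM. At 50 CPM it was 66, 295, 261 and 751, and 2029 against 6199 in T cell-like cells. Weighting clusters alike gave 2483 in macrophage- and 2610 in monocyte-like cells, equal weight of cells 2401 in macrophage-like cells, and the stricter filter 7246 in neutrophil-like cells. Over all alternatives 70 of 732 list medians left their interval. Another 11, of medians at least 0.32 in size, changed sign; smaller medians that changed sign are not in that count. Of 838 named-gene ratios 165 left their interval and 5 changed sign. No paired analysis was possible because each side has 1 library of pooled mice. With 1 library a side, mouse-to-mouse spread is unknown, and the few UMIs of neutrophil- and T cell-like cells limit their gene ratios most.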
